A study of Mus musculus with 16 samples.

Results

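The 34 genes described here encode the proteins that carry long-chain fatty acids into the cardiomyocyte, load them onto carnitine and oxidise them in the mitochondrial matrix. They were chosen by name, as the rows of the gene table with one of these 34 symbols, and all 34 were found among 11631 protein-coding genes. Expression was measured by sequencing of polyadenylated RNA in 16 libraries of adult primary cultured cardiomyocytes from C57BL/6 mice. Cells of control mice, aged about 8 weeks, were exposed for 24 h to 0.1% DMSO as vehicle (n = 5) or to 9 nmol/L linagliptin, an inhibitor of the dipeptidyl peptidase DPP-4 (n = 5). DM-HFD mice had been on a high fat diet for 26 weeks and had received streptozotocin, which destroys insulin-producing beta cells, after 12 weeks of the diet. Their cells were exposed to the same vehicle (n = 3) or the same concentration of linagliptin (n = 3). The 2 kinds of mice therefore differed in diet, streptozotocin and age at once, and these cannot be told apart. The sources do not say if control and DM-HFD cells were prepared at the same time. The labels do not say whether libraries of a group came from separate animals, so p-values measure only the spread between these libraries.

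Fatty acids are the main fuel of the adult heart. After uptake and activation to acyl-CoA, long chains cross the inner mitochondrial membrane as carnitine esters and are shortened by cycles of dehydrogenation, hydration, a further dehydrogenation and thiolysis, and the electrons of the first step reach ubiquinone through the electron-transferring flavoprotein. Malonyl-CoA, made at the outer membrane, inhibits entry at carnitine palmitoyltransferase I, and many genes of the pathway are targets of the nuclear receptor PPAR alpha. Values were FPKM, fragments scaled to the exon length of the gene and to the mapped fragments of the library, so levels of different genes can be set side by side.

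The study gives a nominal sequencing depth, but the files give no count for a gene or library, so precision was judged from the spread of the libraries. Summed FPKM per library ranged from 315152 to 344908 in control cells and from 326762 to 405457 in DM-HFD cells. Mitochondrially encoded mRNAs took 33.1% to 40.0% of it in control cells, 44.1% to 52.2% in DM-HFD cells with vehicle and 26.5% to 41.4% in those with linagliptin. The 12 cardiomyocyte markers summed to 8021 to 9324 FPKM in the control libraries and to 5926 to 10614 in the DM-HFD libraries. The sum was high in every library, but it is dominated by the most abundant markers. For single markers, log2 fold changes of DM-HFD against control cells ran from -1.35 to -0.02 with vehicle (median -0.45, against -0.20 for all genes). With linagliptin they ran from -1.39 to 0.35 (median -0.09, against -0.06 for all genes). The 10 macrophage and leukocyte markers in the table summed to 56.9 to 81.5 FPKM in control cells and to 65.9 to 266 in DM-HFD cells. In DM-HFD linagliptin replicate 2 the sums of the macrophage, fibroblast, adipocyte and red cell markers (266, 91.6, 14.8 and 435 FPKM) were the highest of the 16 libraries. The endothelial sum and the pericyte and smooth muscle sum (234 and 152 FPKM) were also the highest there. The cardiomyocyte sum (5926 FPKM) was the lowest. In these bulk samples, fewer cells of a type and less RNA per cell cannot be told apart.

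In control cells with vehicle, 13 of the 34 genes had a mean over 100 FPKM, 15 lay between 10 and 100 FPKM and 6 lay under 10 FPKM. Fabp3, the heart fatty acid-binding protein that carries fatty acids through the cytosol, was the most abundant at 1383 ± 91.4 FPKM (SD, n = 5), above 99.8% of all genes. It was followed by the long-chain acyl-CoA dehydrogenase Acadl at 406 ± 43.6 FPKM, the thiolase Acaa2 at 346 ± 49.1 FPKM and the dienoyl-CoA isomerase Ech1 at 311 ± 26.1 FPKM (SD, n = 5 each). The intervals of 1 SD of these 3 overlapped for Acadl and Acaa2 and for Acaa2 and Ech1. At the low end were the lipase Lipe at 3.53 ± 2.15 FPKM and Acad10 at 0.967 ± 0.328 FPKM (SD, n = 5 each). The muscle carnitine palmitoyltransferase Cpt1b stood at 90.0 ± 31.7 FPKM and the liver form Cpt1a at 6.88 ± 3.29 FPKM (SD, n = 5 each). The gene value divides by all exons of a gene, and with FPKM summed over the listed transcripts Hadhb moved from rank 12 to rank 3 and Echs1 from rank 23 to rank 16, while Fabp3 kept rank 1.

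Within the groups most of the genes were high or low together in single libraries, and Ech1, Fabp3, Etfb and Acot13 varied least. Control vehicle replicate 4 held the highest value of its group for 27 of the 34 genes, against 29.7% of all 11631 genes, and control linagliptin replicate 3 for 28 of 34, against 27.5%. Acsl1, the acyl-CoA synthetase that activates long-chain fatty acids, was at 59.5 FPKM in control vehicle replicate 4 and between 21.5 and 27.5 FPKM in the other 4 libraries of that group. With linagliptin it was at 59.8 FPKM in replicate 3 and between 17.1 and 27.2 FPKM in the other 4. These libraries also stood high for Cpt1a, Cpt1b, Cpt2, the acetyl-CoA carboxylase Acacb, the thioesterase Acot2, Etfdh and Lipe, and not for Ech1, Etfb, Acot13 or Hsd17b10. Cpt2, which releases acyl-CoA from carnitine inside the inner membrane, was at 74.3 FPKM in control linagliptin replicate 3 and between 39.1 and 41.1 FPKM in the others of that group. Cardiomyocyte markers summed to 8793 FPKM in control vehicle replicate 4 and to 8021 FPKM in control linagliptin replicate 3. The pattern recurred in the DM-HFD cells. DM-HFD vehicle replicate 2 was the highest of its 3 libraries for 29 of the 34 genes (35.9% of all genes). DM-HFD linagliptin replicate 2, the library rich in markers of other cells, was the highest for 5 of 34 (40.8% of all genes). It was the lowest for 23 of 34, but the share of all genes lowest in it was not computed. The part of these library differences in the results that follow is given as values without the libraries concerned.

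**Figure D1:**
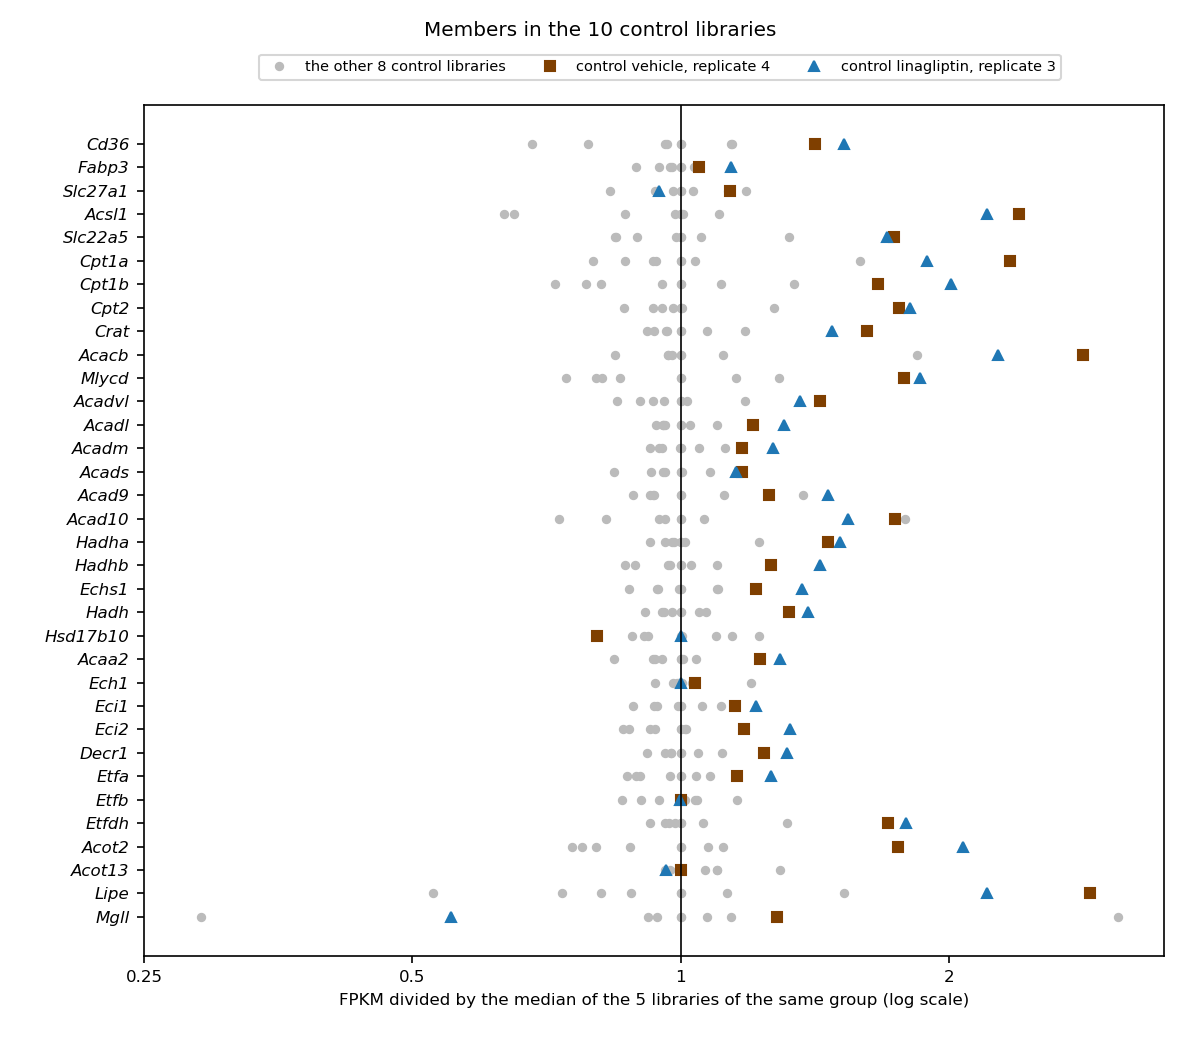
FPKM of the 34 genes in the 10 control libraries, each divided by the median of the 5 libraries of its group, on a log scale. Squares mark control vehicle replicate 4 and triangles control linagliptin replicate 3, which lie to the right for Cd36, Acsl1, the carnitine shuttle and malonyl-CoA control and close to 1 for Ech1, Etfb and Acot13. For Slc27a1 the triangle lies at 0.946. Grey points are the other 8 libraries.

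Cells of DM-HFD mice were compared with cells of control mice under vehicle and, separately, under linagliptin, which asks how the pathway differs between the 2 kinds of mice. With vehicle, Ech1 was 1.93-fold higher in DM-HFD cells, and Acaa2, Fabp3, Decr1 and Eci2 rose by less. Etfa, Acadm and Acad9 fell. A gene was called at a Benjamini-Hochberg adjusted p under 0.05 from limma over all genes tested. By this rule 5 of the 34 genes were higher, against 2.94% of 11359 genes, and 3 were lower, against 28.1%. The other 26 did not pass. With linagliptin, 9 of the 34 were higher, against 5.02% of 11555 genes, and 0 lower, against 21.8%: Ech1, Acaa2, Acads, Acadvl, Fabp3, Etfb, Hsd17b10, Eci1 and Slc27a1. Ech1, Acaa2 and Fabp3 were called in both. The 2 comparisons share no library, but the labels do not say whether cells of the same animal went into both. The DM-HFD libraries lay wholly above the control libraries for 6 of the 34 genes with vehicle (3.39% of genes) and wholly below for 3 (30% of genes). With linagliptin they lay above for 8 (6.25% of genes) and below for 0 (21.8% of genes). The median log2 fold change of the 34 genes was 0.04 with vehicle and 0.30 with linagliptin, where the medians of all genes tested were -0.20 and -0.06. The study itself asked for a fold of 1.5 or more and an unadjusted p of 0.05 or less, and by these thresholds Ech1 alone passed with vehicle (1.84% of genes higher, 18.2% lower). Ech1, Acaa2 and Acads passed with linagliptin as higher (3.82% of genes) and Cd36 as lower (18% of genes). These thresholds were applied to limma, and with the model of Ballgown 0 passed them with vehicle and 4 with linagliptin (Ech1, Hsd17b10, Slc27a1 and Etfa). Over all genes that model passed 301 higher and 587 lower of 11359 with vehicle, and 1433 higher and 1223 lower of 11555 with linagliptin. With vehicle the count by these thresholds was 5 with TPM (118 of all genes higher and 4432 lower) and 8 with median-of-ratios scaling (767 and 972). It was 4 without control vehicle replicate 1 (169 of all genes higher and 2098 lower) or DM-HFD vehicle replicate 1 (226 and 2103). Without DM-HFD vehicle replicate 2 the count was 5 (454 and 2272). It was 2 without DM-HFD vehicle replicate 3 (117 and 1924), control vehicle replicate 2 (223 and 2036) or control vehicle replicate 4 (191 and 2051). With linagliptin the count was 9 with median-of-ratios scaling (882 of all genes higher and 1619 lower), and between 2 and 7 with 1 library left out. It was 2 without control linagliptin replicate 5 (435 of all genes higher and 2018 lower) or DM-HFD linagliptin replicate 3 (225 and 1691). The count was 6 without control linagliptin replicate 3 (455 and 2148) or DM-HFD linagliptin replicate 1 (1445 and 2597). Without DM-HFD linagliptin replicate 2 it was 7 (264 and 1881). Single libraries also moved the counts by the adjusted p. With vehicle 3 of the 34 genes were called without control vehicle replicate 2 and 4 without control vehicle replicate 3. Over all genes these fits called 226 higher and 2708 lower, and 223 and 2669. The count was 3 without DM-HFD vehicle replicate 3 and 5 once DM-HFD vehicle replicate 1 was left out (107 and 2390, and 288 and 2738, over all genes). With DM-HFD vehicle replicate 2 left out, 2 of the 34 were higher and 5 lower (561 and 3100 over all genes). With linagliptin 5 were called without control linagliptin replicate 1 and without replicate 4, 3 without replicate 2, 4 without replicate 5 and 1 without DM-HFD linagliptin replicate 3. Over all genes the fits without control linagliptin replicates 1 and 4 called 169 higher and 1872 lower, and 301 and 1805. Those without control linagliptin replicates 2 and 5 called 119 and 1452, and 186 and 1629. The fit without DM-HFD linagliptin replicate 3 called 5 higher and 90 lower of 11536.

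These counts depend on how the libraries are scaled. Under median-of-ratios scaling the median of all genes was 0.01 with vehicle, and 12 of the 34 genes were higher and 0 lower, and 1543 genes were higher and 1758 lower, against 334 and 3195 on the FPKM as deposited. With linagliptin it gave 10 of the 34 higher and 0 lower, and 1530 genes higher and 1938 lower, against 580 and 2519. With FPKM rescaled to equal sums (TPM), which moves the median with vehicle to -0.47, 1 of the 34 was higher and 4 lower with vehicle. Over all 11359 genes, 121 were higher and 5317 lower. Relative to the median of all genes tested, Ech1 lay between 0.69 and 1.23 (log2) over 5 scalings with vehicle and Etfa between -0.68 and -0.28, so neither changed sign. The difference between DM-HFD and control cells ran with base composition over the transcriptome. Over 11238 genes, which are not independent, log2 fold changes with vehicle had a Spearman's rho of 0.502 with GC content and -0.485 with transcript length, and over 11416 genes with linagliptin of 0.668 and -0.424. Over the 34 genes the values were 0.262 and -0.540 with vehicle and 0.590 and -0.356 with linagliptin, and their median transcript length was 2162 bases against 2800 for all genes. After trends over length and GC content were removed, 2 of the 34 were higher and 3 lower with vehicle and 1 was higher with linagliptin. Over all genes 180 were then higher and 2766 lower with vehicle, and 84 higher and 930 lower with linagliptin. The part of base composition, of the mitochondrial share and of other cells in these differences was not tested beyond these values.

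**Figure D2:**
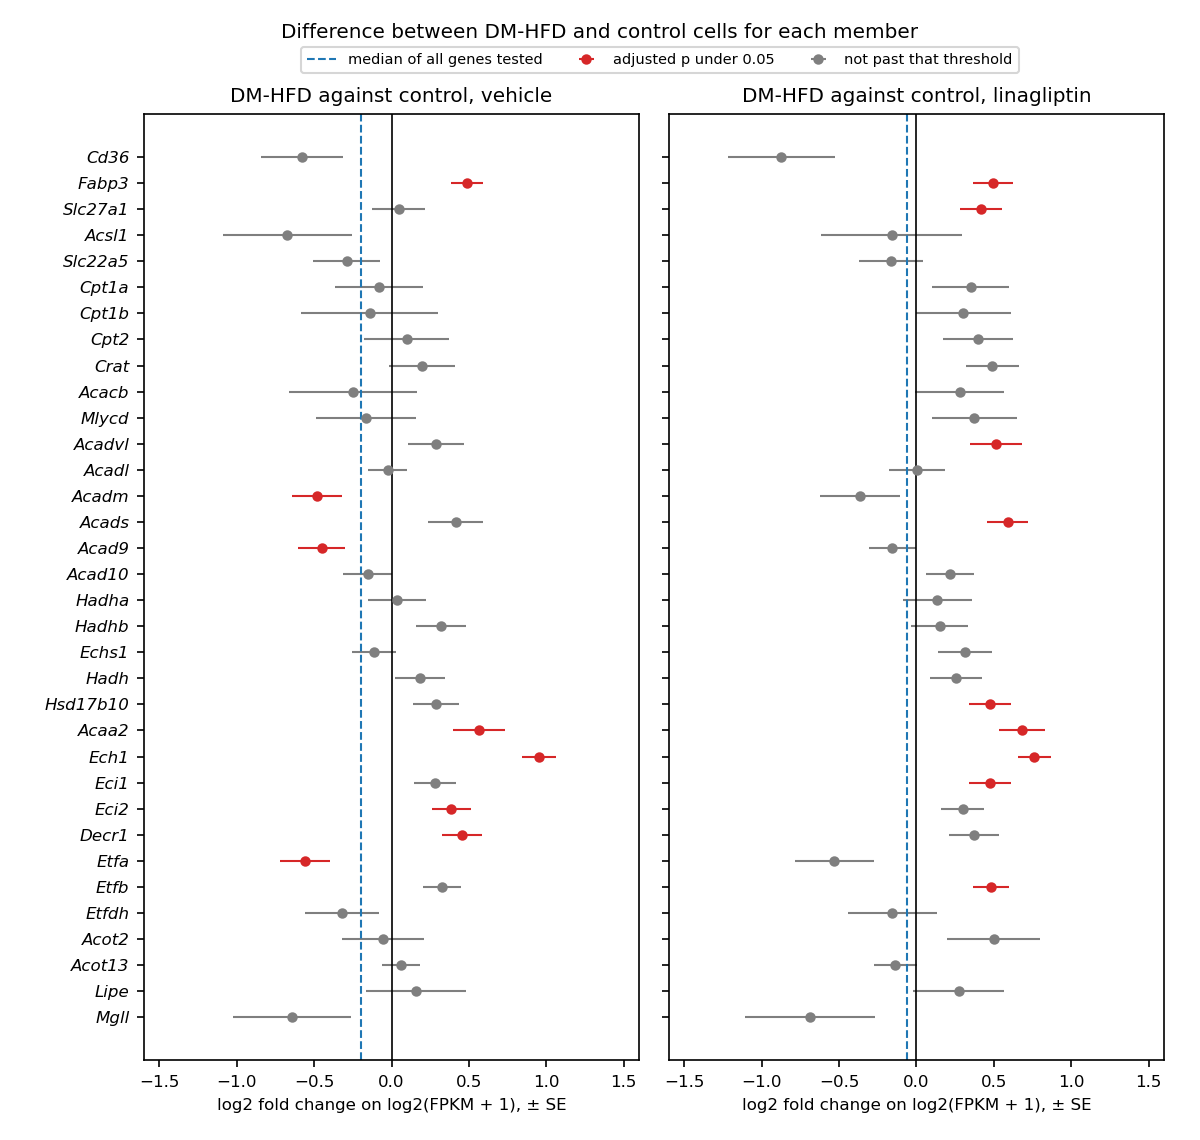
Log2 fold change on the log2(FPKM + 1) scale, DM-HFD against control, for each of the 34 genes in the order of their roles, with vehicle on the left and with linagliptin on the right. Bars are standard errors from limma, red points passed an adjusted p of 0.05, and the dashed line is the median of all genes tested (-0.20 and -0.06). Ech1 lies farthest to the right in both panels, and Etfa, Acadm and Acad9 are the red points below 0 on the left.

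The auxiliary enzymes, which reposition or reduce the double bonds of unsaturated chains so that the cycle can go on, held the gene with the largest rise of the 34 in both comparisons. Of the 4, Ech1, Eci2 and Decr1 rose with vehicle and Ech1 and Eci1 with linagliptin. Ech1 was at 294, 297, 296, 308 and 356 FPKM in the control libraries with vehicle and at 307, 292, 313, 314 and 322 in those with linagliptin. DM-HFD libraries held Ech1 at 572, 599 and 631 FPKM with vehicle and at 506, 532 and 537 with linagliptin. No DM-HFD library overlapped a control library. Ech1 (chr7:28825217-28832247, GRCm38) had a mean of 311 ± 26.1 FPKM (SD, n = 5) in control and 601 ± 29.6 FPKM (SD, n = 3) in DM-HFD cells with vehicle. The log2 fold change was 0.95 (SE 0.11, adjusted p = 0.000509), where SE is the standard error. With linagliptin the means were 309.6 ± 11.1 FPKM (SD, n = 5) and 525 ± 16.3 FPKM (SD, n = 3), and the change was 0.76 (SE 0.11, adjusted p = 0.00560). The call of Ech1 with vehicle held in 12 of 13 other settings and without each library in turn (log2 fold changes of 0.92 to 1.00 with 1 library left out). With linagliptin the call also held without each library in turn, and in 9 of 13 other settings. With trends over length and GC content removed, the value was 0.59 with vehicle (adjusted p = 0.00310) and 0.32 with linagliptin (adjusted p = 0.108). With the model of Ballgown the values were 0.76 and 0.78 (adjusted p = 0.598 and 0.162).

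Decr1, a dienoyl-CoA reductase (chr4:15917240-15945507), had the next largest fold change of the auxiliary enzymes with vehicle. Decr1 was at 87.7, 87.7, 100.1, 112 and 90.0 FPKM in the control libraries with vehicle and at 83.0, 79.1, 114, 90.4 and 86.4 in those with linagliptin. DM-HFD libraries held Decr1 at 137, 142 and 114 FPKM with vehicle and at 140.4, 101 and 112 with linagliptin. The DM-HFD libraries with vehicle lay above the 5 control libraries with vehicle, whereas the groups with linagliptin overlapped. Its log2 fold change was 0.46 (SE 0.13, adjusted p = 0.0209) with vehicle and 0.37 (SE 0.16, adjusted p = 0.106) with linagliptin. The call of Decr1 with vehicle held in 9 of 13 other settings and was lost when any 1 of control vehicle replicate 2 and DM-HFD vehicle replicates 1 and 2 was left out (log2 fold changes of 0.40 to 0.55 with 1 library left out). Eci2, an enoyl-CoA isomerase of mitochondria and peroxisomes (chr13:34977748-35027096), was low in FPKM. Eci2 was at 14.5, 14.7, 16.8, 19.8 and 17.0 FPKM in the control libraries with vehicle and at 16.2, 14.8, 21.3, 15.0 and 16.02 in those with linagliptin. DM-HFD libraries held Eci2 at 23.5, 22.002 and 20.1 FPKM with vehicle and at 21.0, 21.4 and 19.3 with linagliptin. With vehicle the groups did not overlap, and the log2 fold change was 0.39 (SE 0.13, adjusted p = 0.0412). With linagliptin it was 0.30 (SE 0.14, adjusted p = 0.133). The call of Eci2 with vehicle held in 7 of 13 other settings and, of 8 libraries left out in turn, only when control vehicle replicate 4 was the one left out (log2 fold changes of 0.34 to 0.45 with 1 library left out). Eci1, the mitochondrial enoyl-CoA isomerase (chr17:24426683-24439316), was more abundant. Eci1 was at 174, 165, 197, 214 and 186 FPKM in the control libraries with vehicle and at 159, 150.4, 195, 178 and 160.0 in those with linagliptin. DM-HFD libraries held Eci1 at 198, 267 and 221 FPKM with vehicle and at 228, 211 and 264 with linagliptin. The groups with linagliptin did not overlap, and those with vehicle did. For Eci1 the log2 fold change was 0.28 (SE 0.13, adjusted p = 0.139) with vehicle and 0.47 (SE 0.13, adjusted p = 0.0296) with linagliptin. The call of Eci1 with linagliptin held in 6 of 13 other settings and, of 8 libraries left out in turn, only when the one left out was among control linagliptin replicate 3 and DM-HFD linagliptin replicates 1 and 2 (log2 fold changes of 0.39 to 0.55 with 1 library left out).

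The trifunctional protein, encoded by Hadha and Hadhb, carries out hydration, the second oxidation and thiolysis of long chains at the inner membrane. Shorter chains are handled in the matrix by Echs1, Hadh and Hsd17b10, and Acaa2 is the thiolase of medium chains. Of these 6 genes, Acaa2 rose with vehicle and Acaa2 and Hsd17b10 rose with linagliptin. Acaa2 was at 321, 289, 357, 421 and 343 FPKM in the control libraries with vehicle and at 309, 288, 399, 311 and 294 in those with linagliptin. DM-HFD libraries held Acaa2 at 426, 655 and 469 FPKM with vehicle and at 508, 451 and 579 with linagliptin. DM-HFD libraries lay above the control libraries in both comparisons, although DM-HFD vehicle replicate 2 stood well above the other 2. Acaa2 (chr18:74779197-74806207) had a log2 fold change of 0.56 (SE 0.17, adjusted p = 0.0271) with vehicle and 0.68 (SE 0.15, adjusted p = 0.0131) with linagliptin. The call of Acaa2 with vehicle held in 7 of 13 other settings and was lost when any 1 of control vehicle replicates 1 and 2 and DM-HFD vehicle replicates 2 and 3 was left out (log2 fold changes of 0.38 to 0.69 with 1 library left out). The call of Acaa2 with linagliptin held in 8 of 13 other settings and was lost without DM-HFD linagliptin replicate 3 (log2 fold changes of 0.59 to 0.77 with 1 library left out). Hsd17b10 (chrX:152001845-152004442) encodes a matrix dehydrogenase that is also a subunit of mitochondrial RNase P. Hsd17b10 was at 73.7, 83.5, 83.9, 67.2 and 102 FPKM in the control libraries with vehicle and at 77.7, 76.8, 84.5, 96.3 and 92.6 in those with linagliptin. DM-HFD libraries held Hsd17b10 at 88.8, 113 and 97.5 FPKM with vehicle and at 102, 133 and 123 with linagliptin. The 3 DM-HFD libraries with linagliptin lay above the 5 control libraries with linagliptin, and the groups with vehicle overlapped. Its log2 fold change was 0.29 (SE 0.15, adjusted p = 0.175) with vehicle and 0.48 (SE 0.14, adjusted p = 0.0327) with linagliptin. The call of Hsd17b10 with linagliptin held in 5 of 13 other settings and, of 8 libraries left out in turn, only when the one left out was among control linagliptin replicate 4 and DM-HFD linagliptin replicate 1 (log2 fold changes of 0.39 to 0.58 with 1 library left out).

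Hadha was at 102, 94.2, 125, 149 and 99.7 FPKM in the control libraries with vehicle and at 103, 98.8, 155, 101 and 104 in those with linagliptin. DM-HFD libraries held Hadha at 95.7, 149.6 and 106 FPKM with vehicle and at 163, 86.3 and 128 with linagliptin. The ranges of the 4 groups overlapped for Hadha (chr5:30118304-30155162), with log2 fold changes of 0.03 (SE 0.19, adjusted p = 0.911) with vehicle and 0.13 (SE 0.22, adjusted p = 0.665) with linagliptin. Hadhb lies next to it on the other strand (chr5:30155248-30184593) and had log2 fold changes of 0.32 (SE 0.16, adjusted p = 0.162) and 0.15 (SE 0.19, adjusted p = 0.555). The ratio of Hadhb to Hadha FPKM within a library varied less than either gene. It lay between 1.17 and 1.39 in control cells with vehicle and between 1.45 and 1.62 in DM-HFD cells with vehicle, with no overlap. With linagliptin it lay between 1.21 and 1.31 in control and between 1.19 and 1.43 in DM-HFD cells, which overlapped. In an exact two-sided permutation test the difference with vehicle had p = 0.0179 (adjusted p = 0.0476 over the 8 relations of the 2 subunit pairs in 4 comparisons), the smallest p that 5 against 3 libraries allow. With linagliptin the exact permutation test gave p = 0.768 (adjusted p = 0.897). These 2 ratios were chosen after their values were seen. Echs1 and Hadh did not pass in either comparison, with log2 fold changes between -0.11 and 0.32.

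The electron-transferring flavoprotein takes electrons from the acyl-CoA dehydrogenases. Its subunits are encoded by Etfa and Etfb, and Etfdh passes the electrons on to ubiquinone. Etfa fell with vehicle, Etfb rose with linagliptin and Etfdh passed in neither. Etfa was at 193, 189, 234, 251 and 217 FPKM in the control libraries with vehicle and at 204, 184, 258, 212 and 198 in those with linagliptin. DM-HFD libraries held Etfa at 159, 172 and 113 FPKM with vehicle and at 225, 89.3 and 151 with linagliptin. With vehicle the DM-HFD libraries lay below all control libraries, while with linagliptin DM-HFD replicate 1 lay within the control range and replicate 2 far below it. Etfa (chr9:55454508-55512243) had a log2 fold change of -0.56 (SE 0.16, adjusted p = 0.0228) with vehicle and -0.53 (SE 0.26, adjusted p = 0.140) with linagliptin. The call of Etfa with vehicle held in 8 of 13 other settings and was lost when any 1 of control vehicle replicate 3 and DM-HFD vehicle replicate 3 was left out (log2 fold changes of -0.68 to -0.38 with 1 library left out). Etfb was at 189, 180.1, 217, 209 and 242 FPKM in the control libraries with vehicle and at 212, 192, 203, 205 and 203 in those with linagliptin. DM-HFD libraries held Etfb at 258, 244 and 277 FPKM with vehicle and at 261, 270.1 and 323 with linagliptin. The DM-HFD libraries lay above the control libraries of the same treatment in both comparisons. Etfb (chr7:43444083-43457800) had a log2 fold change of 0.33 (SE 0.12, adjusted p = 0.0693) with vehicle and 0.48 (SE 0.12, adjusted p = 0.0184) with linagliptin. The call of Etfb with linagliptin held in 7 of 13 other settings and was lost when any 1 of control linagliptin replicate 2 and DM-HFD linagliptin replicate 3 was left out (log2 fold changes of 0.39 to 0.54 with 1 library left out). With trends over length and GC content removed, the value of Etfb was -0.07 with linagliptin and -0.14 with vehicle. The GC content is 57.1% for Etfb and 45.0% for Etfa.

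The subunits are needed in equal number in the protein, and the ratio of Etfb to Etfa FPKM in a library was near 1 in control cells. It ranged from 0.836 to 1.12 with vehicle and from 0.787 to 1.05 with linagliptin (n = 5 each). In DM-HFD cells it was 1.62, 1.42 and 2.45 with vehicle and 1.16, 3.03 and 2.14 with linagliptin. All 6 DM-HFD libraries lay above all 10 control libraries. In an exact two-sided permutation test the log2 ratio differed by 0.89 with vehicle (p = 0.0179, adjusted p = 0.0476 over 8 relations) and by 1.02 with linagliptin (p = 0.0179, adjusted p = 0.0476). With FPKM summed over transcripts the differences were 0.80 and 1.06, with the same p. This p is the smallest that 5 against 3 libraries allow. The ratio was chosen after its values were seen, so the p-values only restate that the groups were apart. In the same DM-HFD libraries the cardiomyocyte markers summed to 6574, 9174 and 7200 FPKM with vehicle and to 9434, 5926 and 10614 FPKM with linagliptin. The part of GC content and of cell composition in the ratio was not tested. Etfdh, with log2 fold changes of -0.32 (SE 0.24, adjusted p = 0.342) and -0.16 (SE 0.29, adjusted p = 0.699), overlapped between the groups.

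**Figure D3:**
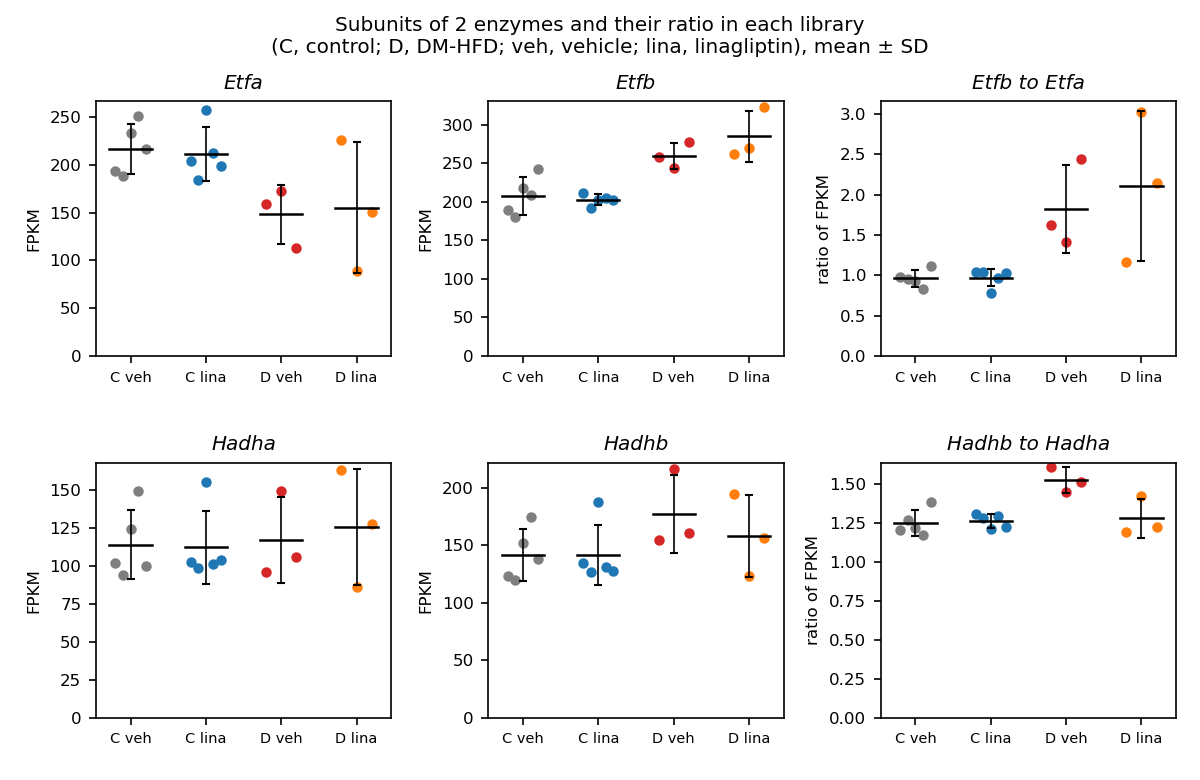
FPKM of the subunit genes Etfa, Etfb, Hadha and Hadhb in each library (left and middle) and the ratio within a library (right), with the mean and SD of each group. The ratio of Etfb to Etfa lies between 0.787 and 1.12 in the 10 control libraries and between 1.16 and 3.03 in the 6 DM-HFD libraries. The ratio of Hadhb to Hadha is separated between the groups with vehicle and not with linagliptin.

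The acyl-CoA dehydrogenases open each cycle and differ in the chain length they accept. Of the 6 genes, Acadm and Acad9 fell with vehicle, and Acads and Acadvl rose with linagliptin. Acadm was at 204, 197, 239.5, 250.3 and 214 FPKM in the control libraries with vehicle and at 198, 187, 251, 207 and 197 in those with linagliptin. DM-HFD libraries held Acadm at 171, 191 and 118 FPKM with vehicle and at 263, 102 and 154 with linagliptin. Acadm, the medium-chain enzyme (chr3:153922357-153944632), was lower in the 3 DM-HFD libraries with vehicle than in the 5 control libraries with vehicle, and spread from 102 to 263 FPKM, across the control range, in those with linagliptin. Its log2 fold change was -0.48 (SE 0.16, adjusted p = 0.0457) with vehicle and -0.36 (SE 0.26, adjusted p = 0.301) with linagliptin. The call of Acadm with vehicle held in 5 of 13 other settings and, of 8 libraries left out in turn, only when DM-HFD vehicle replicate 2 was the one left out (log2 fold changes of -0.62 to -0.28 with 1 library left out). Acad9 (chr3:36065979-36092853) encodes a dehydrogenase that also serves in the assembly of respiratory complex I. Acad9 was at 3.71, 3.98, 5.47, 5.003 and 3.52 FPKM in the control libraries with vehicle and at 3.504, 3.76, 5.51, 4.20 and 3.47 in those with linagliptin. DM-HFD libraries held Acad9 at 2.56, 3.46 and 2.63 FPKM with vehicle and at 3.90, 3.31 and 3.38 with linagliptin. The groups with vehicle did not overlap, and the log2 fold change was -0.45 (SE 0.15, adjusted p = 0.0429). With linagliptin the groups overlapped, with -0.16 (SE 0.15, adjusted p = 0.447). The call of Acad9 with vehicle held in 5 of 13 other settings and, of 8 libraries left out in turn, only when the one left out was among control vehicle replicates 1 and 5 and DM-HFD vehicle replicate 2 (log2 fold changes of -0.56 to -0.38 with 1 library left out). With the model of Ballgown the value of Acad9 was 0.30, in the opposite direction.

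Acads, the short-chain dehydrogenase (chr5:115110299-115119346), stood higher in DM-HFD cells. Acads was at 58.5, 49.0, 53.9, 68.2 and 58.2 FPKM in the control libraries with vehicle and at 52.7, 50.2, 60.8, 56.8 and 50.5 in those with linagliptin. DM-HFD libraries held Acads at 60.4, 104 and 71.6 FPKM with vehicle and at 77.9, 74.4 and 94.4 with linagliptin. With linagliptin the groups were apart, and with vehicle DM-HFD replicate 1 lay within the control range. Acads had a log2 fold change of 0.41 (SE 0.18, adjusted p = 0.0997) with vehicle and 0.59 (SE 0.13, adjusted p = 0.0139) with linagliptin. The call of Acads with linagliptin held in 8 of 13 other settings and was lost without DM-HFD linagliptin replicate 3 (log2 fold changes of 0.49 to 0.66 with 1 library left out). Acadvl, the very long-chain enzyme of the inner membrane (chr11:70010183-70015411), had a similar fold change. Acadvl was at 208, 189, 264, 319.9 and 223 FPKM in the control libraries with vehicle and at 215, 191, 288, 212 and 203 in those with linagliptin. DM-HFD libraries held Acadvl at 246, 341 and 285 FPKM with vehicle and at 313, 266 and 370.2 with linagliptin. Control linagliptin replicate 3 lay within the range of the DM-HFD libraries. The log2 fold change was 0.28 (SE 0.18, adjusted p = 0.259) with vehicle and 0.51 (SE 0.17, adjusted p = 0.0469) with linagliptin. The call of Acadvl with linagliptin held in 4 of 13 other settings and, of 8 libraries left out in turn, only when the one left out was among control linagliptin replicate 3 and DM-HFD linagliptin replicates 1 and 2 (log2 fold changes of 0.39 to 0.63 with 1 library left out). With the model of Ballgown its value with linagliptin was -0.09. Acadl and Acad10 passed in neither comparison, and Acadl, next to Fabp3 in abundance, had log2 fold changes of -0.02 and 0.00.

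Uptake and activation involve Cd36, a fatty acid translocase of the plasma membrane, Slc27a1, a fatty acid transport protein, Fabp3 and Acsl1. Fabp3 rose in both comparisons and Slc27a1 with linagliptin. Fabp3 was at 1329, 1405, 1252, 1472 and 1454 FPKM in the control libraries with vehicle and at 1326, 1273, 1449, 1239 and 1244 in those with linagliptin. DM-HFD libraries held Fabp3 at 1861, 1959 and 1993 FPKM with vehicle and at 1881, 1594 and 2065 with linagliptin. The DM-HFD libraries lay above the control libraries of the same treatment. Fabp3 (chr4:130308595-130315463) had a log2 fold change of 0.49 (SE 0.10, adjusted p = 0.00575) with vehicle and 0.49 (SE 0.13, adjusted p = 0.0218) with linagliptin. The call of Fabp3 with vehicle held in 8 of 13 other settings and without each library in turn (log2 fold changes of 0.45 to 0.52 with 1 library left out). The call of Fabp3 with linagliptin held in 6 of 13 other settings and was lost when any 1 of control linagliptin replicates 2, 4 and 5 and DM-HFD linagliptin replicate 3 was left out (log2 fold changes of 0.41 to 0.60 with 1 library left out). With trends over length and GC content removed, its values were 0.02 and 0.00. Slc27a1 was at 18.1, 17.0, 21.4, 20.6 and 17.7 FPKM in the control libraries with vehicle and at 15.5, 18.7, 17.7, 21.1 and 19.3 in those with linagliptin. DM-HFD libraries held Slc27a1 at 14.1, 25.1 and 21.0 FPKM with vehicle and at 21.5, 26.3 and 27.1 with linagliptin. The groups with linagliptin were apart by less than 1 FPKM. Slc27a1 (chr8:71568882-71587302) had a log2 fold change of 0.05 (SE 0.17, adjusted p = 0.864) with vehicle and 0.42 (SE 0.14, adjusted p = 0.0494) with linagliptin. The call of Slc27a1 with linagliptin held in 4 of 13 other settings and, of 8 libraries left out in turn, only when DM-HFD linagliptin replicate 1 was the one left out (log2 fold changes of 0.36 to 0.52 with 1 library left out).

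Cd36 was at 139.8, 197, 234, 289.8 and 205 FPKM in the control libraries with vehicle and at 169, 215, 328, 208 and 246 in those with linagliptin. DM-HFD libraries held Cd36 at 147, 195 and 92.0 FPKM with vehicle and at 249, 79.98 and 95.4 with linagliptin. Cd36 (chr5:17781690-17888801) overlapped between the groups in both comparisons. DM-HFD vehicle replicates 1 and 2 and DM-HFD linagliptin replicate 1 lay within the range of the control libraries of the same treatment, and the other 3 DM-HFD libraries below it. The log2 fold change was -0.58 (SE 0.26, adjusted p = 0.121) with vehicle and -0.87 (SE 0.35, adjusted p = 0.0843) with linagliptin, which passed the thresholds of the study and not the adjusted p. Endothelial cells carry Cd36 too, and the 13 endothelial markers summed to 131 to 221 FPKM in control cells and to 53.1 to 234 FPKM in DM-HFD cells. In replicate order, the endothelial sum of the DM-HFD libraries was 129.9, 76.3 and 135.0 FPKM with vehicle and 53.1, 234 and 101.9 FPKM with linagliptin. The part of endothelial cells in the Cd36 values was not tested. Acsl1 spread from 9.59 to 45.6 FPKM over the 6 DM-HFD libraries and passed in neither comparison.

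**Figure D4:**
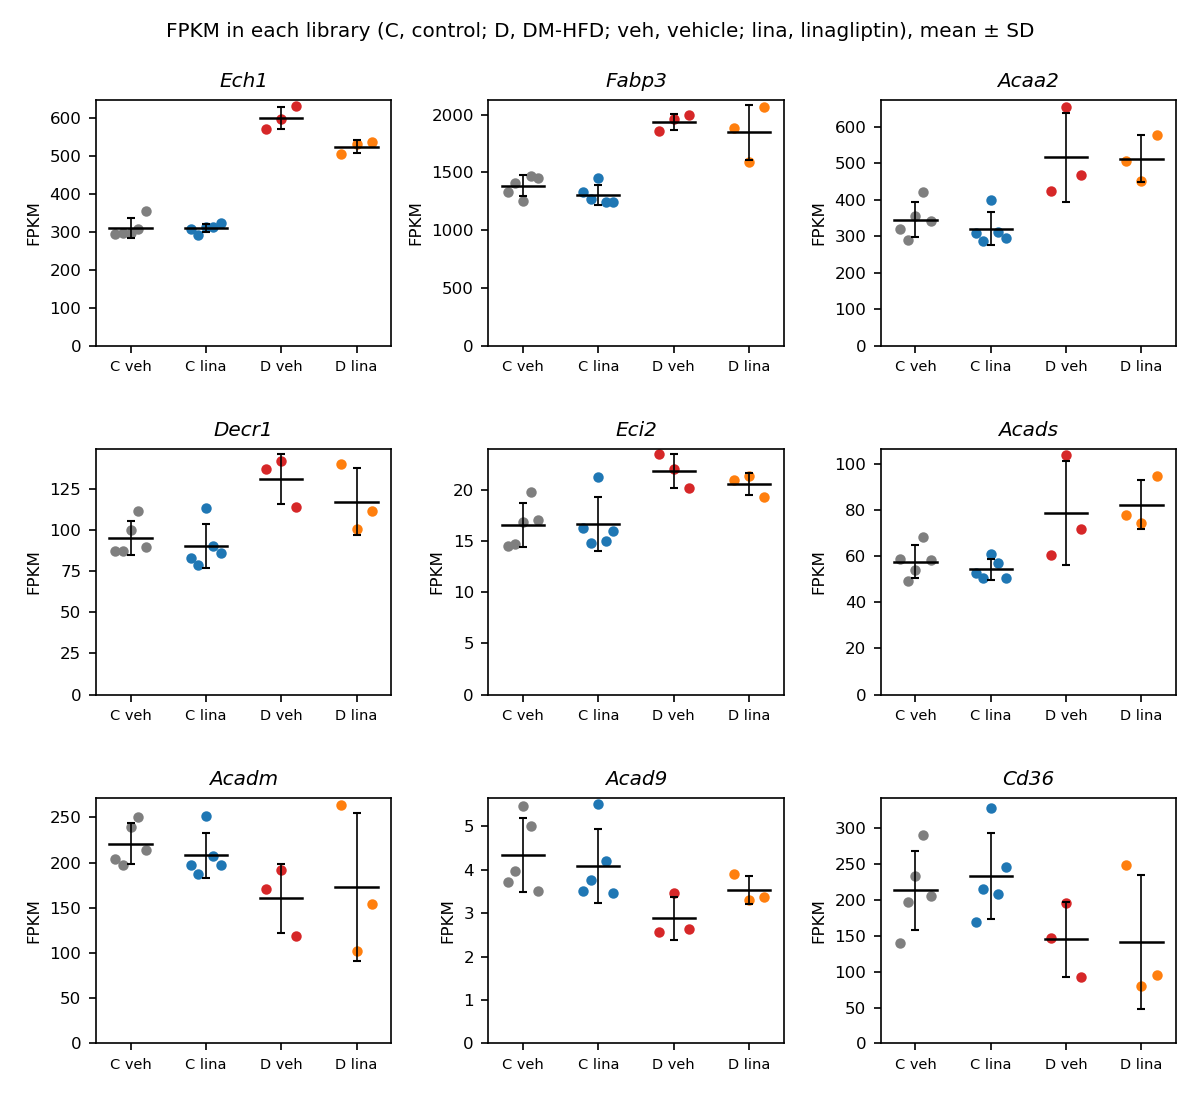
FPKM in each of the 16 libraries for 9 of the genes described, with the mean and SD of each group (n = 5 for control and n = 3 for DM-HFD cells). Ech1 is separated between control (293 to 356 FPKM) and DM-HFD libraries (506 to 631 FPKM), whereas Acadm and Cd36 spread widely among the DM-HFD libraries with linagliptin.

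In the carnitine shuttle, where Slc22a5 imports carnitine, Cpt1a and Cpt1b form acylcarnitines, Cpt2 reverses this in the matrix and Crat acts on acetyl-CoA, 0 of 5 genes passed in either comparison. Cpt1b was at 58.7, 66.1, 109, 135 and 81.1 FPKM in the control libraries with vehicle and at 57.8, 70.3, 148, 81.9 and 73.7 in those with linagliptin. DM-HFD libraries held Cpt1b at 32.2, 157 and 91.5 FPKM with vehicle and at 136, 110.4 and 68.8 with linagliptin. The groups overlapped for Cpt1b (chr15:89416405-89425863), and within DM-HFD cells with vehicle its values differed more between libraries than the means did between groups. The log2 fold change was -0.14 (SE 0.44, adjusted p = 0.831) with vehicle and 0.30 (SE 0.31, adjusted p = 0.467) with linagliptin. The other 4 had values between -0.29 and 0.20 with vehicle and between -0.17 and 0.49 with linagliptin. The largest of them was that of Crat with linagliptin, 0.49 (SE 0.17, adjusted p = 0.0575). Without control linagliptin replicate 3, Crat, Cpt2, Acot2 and Eci2 joined the genes called with linagliptin, at log2 fold changes of 0.61, 0.57, 0.73 and 0.38, while Hsd17b10 and Slc27a1 were no longer called. Acacb, which makes the malonyl-CoA that inhibits Cpt1b, and Mlycd, which breaks it down, had values of -0.25 and -0.17 with vehicle and of 0.28 and 0.37 with linagliptin. Neither passed. The thioesterases Acot2 and Acot13, which release free fatty acids from acyl-CoA, and the lipases Lipe and Mgll, which act on diacylglycerol and monoacylglycerol, also did not pass. Their log2 fold changes lay between -0.69 and 0.50. Standard errors were 0.25 to 0.45 for Cpt1b, Acacb, Acsl1, Cpt1a, Mlycd, Lipe and Mgll in both comparisons, and differences of that size were not detectable with these libraries.

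**Figure D5:**
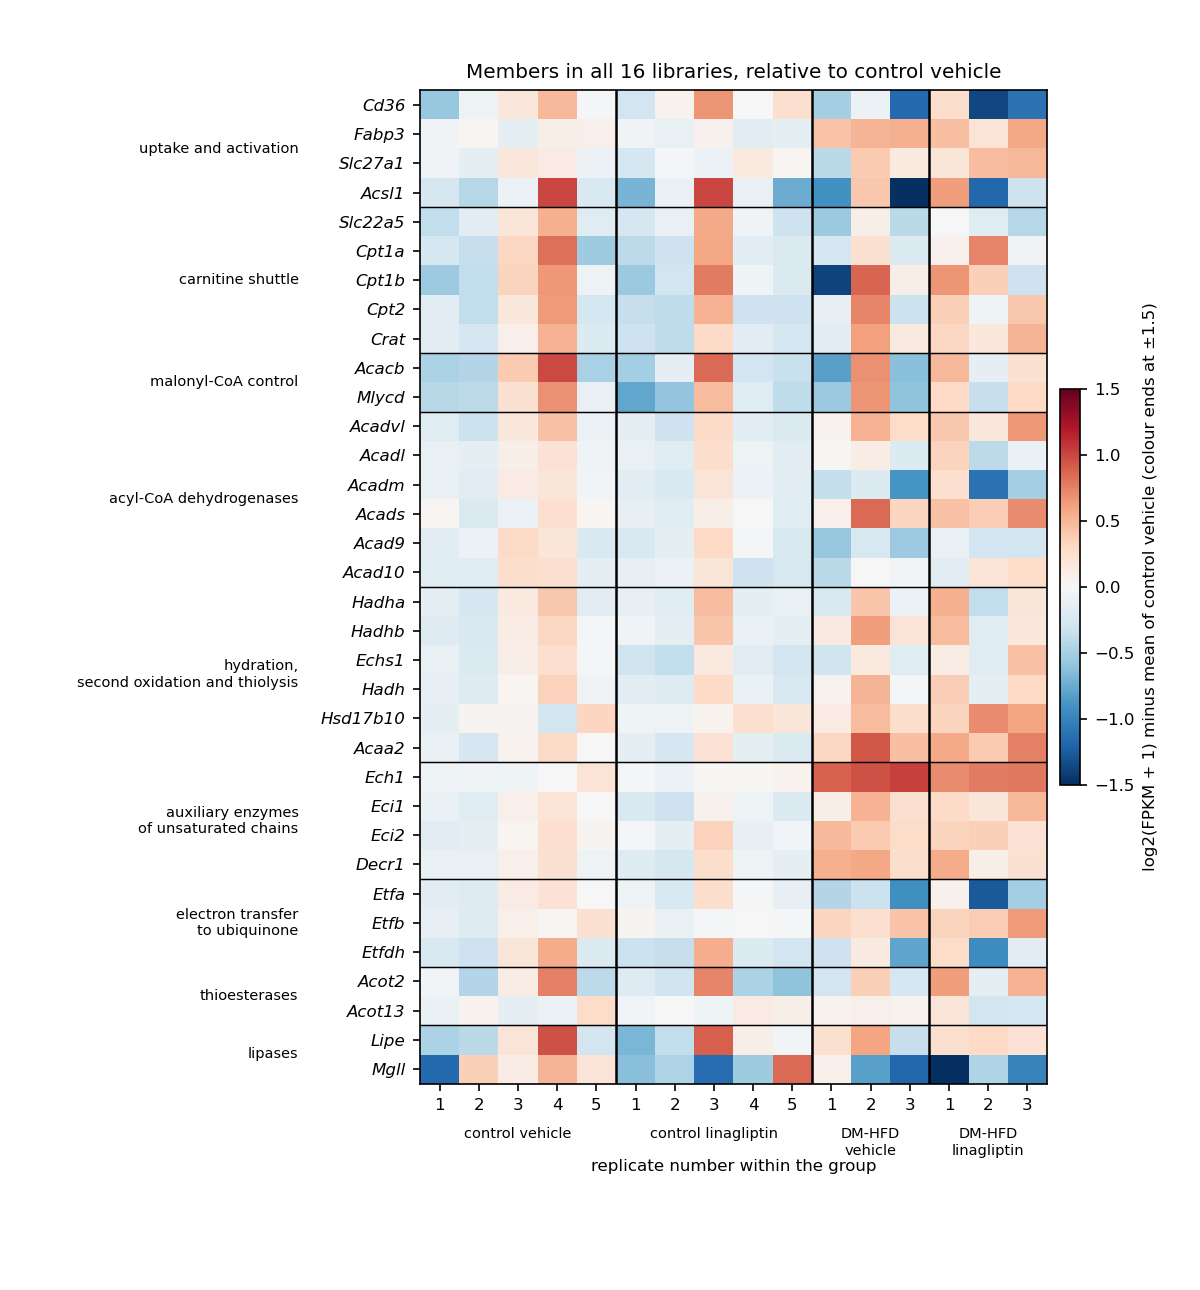
Heat map of the 34 genes, grouped by role, in the 16 libraries. Colour is log2(FPKM + 1) minus the mean of control vehicle, with the colour scale ending at ±1.5. The row of Ech1 is red in all 6 DM-HFD libraries, and that of Fabp3 is higher in them than in the control libraries. The rows of Acsl1, the shuttle and malonyl-CoA control are high in single libraries of each kind.

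Sequence upstream of the start site is shown for 6 called genes, 4 that rose and 2 that fell, because PPAR alpha and related receptors bind repeats of the hexamer AGGTCA. The stretches are the 250 bases before the RefSeq start, from a table on GRCm38.p6, which held 28 of the 34 genes. For Ech1 and Fabp3 this start lies inside the gene bounds given above. They run 5′ to 3′ on the strand of the gene, and capitals mark matches to AGGTCA on either strand or to its direct repeat with 1 base between the copies (AGGTCANAGGTCA, up to 3 mismatches over 12 letters).
Ech1 (chr7:28825088-28825337, plus strand): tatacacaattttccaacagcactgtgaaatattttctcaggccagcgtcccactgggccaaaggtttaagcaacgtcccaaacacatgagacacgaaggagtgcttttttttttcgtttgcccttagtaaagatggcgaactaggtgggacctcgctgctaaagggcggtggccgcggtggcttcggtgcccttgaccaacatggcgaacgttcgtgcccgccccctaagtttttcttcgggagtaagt
Acads (chr5:115119347-115119596, minus strand): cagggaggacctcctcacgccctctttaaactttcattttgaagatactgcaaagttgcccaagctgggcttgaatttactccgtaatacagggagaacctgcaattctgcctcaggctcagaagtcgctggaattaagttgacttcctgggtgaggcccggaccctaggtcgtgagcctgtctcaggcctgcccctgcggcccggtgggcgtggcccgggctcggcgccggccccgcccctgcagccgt
Acadvl (chr11:70015429-70015678, minus strand): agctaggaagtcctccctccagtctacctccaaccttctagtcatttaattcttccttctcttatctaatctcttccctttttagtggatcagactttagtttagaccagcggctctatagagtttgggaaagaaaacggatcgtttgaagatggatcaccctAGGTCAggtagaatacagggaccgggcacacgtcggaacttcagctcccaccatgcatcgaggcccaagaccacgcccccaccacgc
Fabp3 (chr4:130308488-130308737, plus strand): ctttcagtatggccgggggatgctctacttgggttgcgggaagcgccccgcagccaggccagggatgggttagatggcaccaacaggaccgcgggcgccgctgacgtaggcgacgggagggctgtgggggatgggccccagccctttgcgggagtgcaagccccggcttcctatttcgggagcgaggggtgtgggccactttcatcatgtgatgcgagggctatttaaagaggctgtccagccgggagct
Etfa (chr9:55512244-55512493, minus strand): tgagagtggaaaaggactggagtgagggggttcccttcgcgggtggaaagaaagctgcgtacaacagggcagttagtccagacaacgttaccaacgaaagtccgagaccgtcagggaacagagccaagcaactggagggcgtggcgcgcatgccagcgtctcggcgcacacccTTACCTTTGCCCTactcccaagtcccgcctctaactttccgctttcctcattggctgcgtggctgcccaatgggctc
Acadm (chr3:153944644-153944893, minus strand): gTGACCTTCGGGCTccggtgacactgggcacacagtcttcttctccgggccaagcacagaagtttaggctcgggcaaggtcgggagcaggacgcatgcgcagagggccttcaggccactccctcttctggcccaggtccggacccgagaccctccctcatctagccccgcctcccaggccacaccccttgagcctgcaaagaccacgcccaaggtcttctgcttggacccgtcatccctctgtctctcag
Acadvl held the hexamer from 87 to 82 bases before the start, on the strand of the gene. Acadm held it on the other strand from 249 to 244 bases before the start, within a match to the direct repeat with 3 mismatches. Etfa held a match to the direct repeat with 2 mismatches, on the other strand from 77 to 65 bases before the start. Ech1, Acads and Fabp3 had no match in the window. Of the 33 upstream stretches listed for the 28 genes, 15.2% held the hexamer and 30.3% the repeat, against 14.0% and 21.3% of 32851 stretches of the same length. A match describes the letters and was not tested for binding.

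Linagliptin was compared with vehicle in each kind of mouse, to ask whether 24 h of the inhibitor changed the pathway. In control cells 0 of the 34 genes passed the adjusted p (0% of 11365 genes), 0 passed the thresholds of the study (0.22% of genes) and 0 had an unadjusted p under 0.05 (3.95% of genes) in limma. The lowest adjusted p among them was 0.997, and with the model of Ballgown 0 passed either the adjusted p or the thresholds of the study. Over all genes that model passed 5 higher and 10 lower by these thresholds. Values with linagliptin lay slightly below vehicle for 30 of the 34 genes (42.8% of all genes), with a median log2 fold change of -0.08 against 0.02 for all genes. The groups overlapped for all 34 (0.757% of all genes did not overlap). Fabp3, for example, was 1383 ± 91.4 FPKM with vehicle and 1306 ± 86.9 with linagliptin (SD, n = 5 each). The largest differences were those of Mgll, -0.38 (SE 0.37, adjusted p = 0.997), and Mlycd, -0.29 (SE 0.25, adjusted p = 0.997). For Ech1 the log2 fold change was 0.00 with a standard error of 0.08, and for Cpt1b it was -0.07 with a standard error of 0.27.

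In DM-HFD cells 0 of the 34 genes passed the adjusted p (0% of 11127 genes), 0 the thresholds of the study (0.62%) and 0 an unadjusted p of 0.05 (1.12%) in limma. The lowest adjusted p among the 34 was 1.00. With the model of Ballgown 0 passed the adjusted p, and 2, Acot2 and Etfdh, passed the thresholds of the study, at log2 fold changes of 1.12 each. Over all 11127 genes that model passed 95 higher and 156 lower by these thresholds. The median log2 fold change was 0.09, against 0.12 for all genes. Ech1 was the only gene whose libraries did not overlap, at 572 to 631 FPKM with vehicle and 506 to 537 FPKM with linagliptin (0.62% of genes were lower without overlap and 5.66% higher). Its log2 fold change was -0.19 (SE 0.17, adjusted p = 1.00). Largest in size were Acacb, 0.45 (SE 0.39, adjusted p = 1.00), and Mgll, -0.43 (SE 0.41, adjusted p = 1.00), both with overlapping libraries. The test of the difference in response between the 2 kinds of mice called 0 of the 34 genes and 0% of 11631 genes, with a lowest adjusted p of 0.889 among the 34 from limma, and 0 of the 34 had an unadjusted p under 0.05 (4.72% of genes). The ratio of Hadhb to Hadha lay between 1.45 and 1.62 with vehicle and between 1.19 and 1.43 with linagliptin in DM-HFD cells. By an exact permutation test this had p = 0.1, the smallest that 3 against 3 libraries allow (adjusted p = 0.2 over 8 relations), and with FPKM summed over transcripts p = 0.2 (adjusted p = 0.4).

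Of 61 genes around the pathway that were tested, 1 rose and 17 fell with vehicle, where 2.94% of all genes rose and 28.1% fell. With linagliptin 8 rose and 11 fell, against 5.02% and 21.8% of all genes. Under median-of-ratios scaling 6 were higher and 10 lower with vehicle, and 8 higher and 8 lower with linagliptin. Among 14 other genes of fatty acid supply and activation, 0 rose and 6 fell, with a median log2 fold change of -0.45 (-0.20 over all genes tested). The log2 fold change of Fabp4, a fatty acid-binding protein of adipocytes, macrophages and endothelial cells, was -1.15, that of the lipoprotein receptor Vldlr -1.05, that of lipoprotein lipase (Lpl) -0.91 and that of the synthetase Acsl4 -0.87. With linagliptin 2 rose and 4 fell, with a median of -0.42 (-0.06 over all genes). Fabp4 was at -1.80, Gpihbp1, which holds lipoprotein lipase on capillary endothelium, at -1.16, the synthetase Acsl3 at -0.87 and the triglyceride lipase Pnpla2 at 0.87. Of 16 other mitochondrial genes, 1 rose with vehicle, the thioesterase Acot7 (0.62), and 4 fell, among them the methylmalonyl-CoA mutase Mut (-1.02), Tmlhe of carnitine synthesis (-0.84) and Pcca, a subunit of propionyl-CoA carboxylase (-0.69). With linagliptin 4 rose, led by Acot7 (0.94) and the acyl-CoA synthetase Acsf2 (0.82), and Tmlhe (-0.97) and Mut (-0.93) fell. The medians were 0.02 and 0.12. Of 19 peroxisomal genes, 0 rose and 3 fell with vehicle, the membrane transporter Abcd3 (-0.77), the carnitine octanoyltransferase Crot (-0.65) and Scp2 (-0.53). With linagliptin the thiolase Acaa1b rose (0.61) and Abcd3 (-0.95) and Crot (-0.77) fell, and the medians were -0.18 and 0.08. Of 12 regulators, 4 fell with vehicle: Prkaa2, a catalytic subunit of AMP-activated kinase (-1.10), the coactivator Ppargc1a (-1.07), the nuclear receptor Esrrg (-1.06) and Pparg (-0.35). With linagliptin Prkaa2 (-1.05), Esrrg (-0.88) and Pparg (-0.50) fell and Ppard (0.54) rose. Medians of the regulators were -0.33 and -0.10. Ppara, named after its values were seen because it encodes the receptor introduced above, had log2 fold changes of -0.52 and -0.33 and passed in neither.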

How the data were processed

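Polyadenylated RNA was sequenced as paired ends (stranded library kit) from 16 libraries of adult mouse cardiomyocytes. Per the labels and the methods of the study, reads were trimmed with cutadapt, aligned with HISAT2 2.1.0 to GRCm38 and assembled with StringTie 1.3.3, and the authors deposited FPKM from Ballgown for 11631 genes and 23055 transcripts. The highest group mean of each listed gene was over 0.5 FPKM. The deposited FPKM hold no read counts, so no counting interval or count model could be used.

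Groups came from the sample labels. Each comparison was fitted with limma 3.58.1 in R 4.3.3 on log2(FPKM + 1) of the groups compared, keeping genes whose mean reached 0.5 FPKM in either of them. Fold changes are on that scale, which understates the change of low genes. P-values were Benjamini-Hochberg adjusted over all genes tested, and an adjusted p under 0.05 was called. Subunit ratios were tested with exact two-sided permutation tests (scipy 1.17.1). The 34 genes and the lists were chosen with earlier results of these data known. Of them, genes called or past the thresholds of the study in a comparison, and Cd36, Fabp3, Cpt1b, Acadvl, Acadm, Hadha and Ech1, are given in every library, and up to 4 called genes of each other list are named by size of change.

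Alternatives were a pseudocount of 0.1, no filter, a filter of 2 FPKM, TPM, equal sums without mitochondrially encoded genes, median-of-ratios and quantile scaling, values summed from transcripts, removal of spline trends (4 degrees of freedom) over transcript length and GC content, the model of Ballgown, all 4 groups in 1 fit, the replicate number as a block, and each library left out. Length and GC content were known for 98.6% of genes. The fit was tested on simulated data. Adding trend removal on median-of-ratios scaling, leaving out pairs of libraries and summing transcripts for the ratios were chosen after seeing the data. Upstream sequences are from RefSeq (GRCm38.p6).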

Additional observations from a re-analysis of the deposited data

Results flagged for a closer look

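Of 76 tests for a single distant library within the control groups, which flag about 1 in 20 groups by chance, 20 gave a library farther from the others than Dixon's limit of 0.71 of the range (n = 5). Of the 19 that concern single genes, 16 were high values in control linagliptin replicate 3. In FPKM these were Acsl1 at 59.8, Slc22a5 at 9.79, Cpt1a at 10.1, Cpt1b at 148, Cpt2 at 74.3, Crat at 45.3 and Acacb at 33.6 for uptake, shuttle and malonyl-CoA control. In the same library the dehydrogenases Acadvl and Acadl were at 288 and 487, Hadha, Hadhb, Hadh and Acaa2 at 155, 188, 107 and 399, Eci2 at 21.3, Etfdh at 86.5 and Acot2 at 72.2. The summed FPKM of the 34 genes was 5744 there, against 4403 to 4643 in the other 4 libraries of the group. Acsl1 was also high in control vehicle replicate 4, at 59.5 FPKM against 21.5 to 27.5. Ech1 was at 356 FPKM in control vehicle replicate 5, against 294 to 308 in the others, and Mgll at 10.2 FPKM in control linagliptin replicate 5, against 1.82 to 3.53. Each comparison of DM-HFD with control cells holds 1 of the 2 control libraries with many high values. Without that library, 6 of the 34 genes were called with vehicle and 11 with linagliptin. Over all genes 251 were then higher and 2972 lower with vehicle, and 488 higher and 2311 lower with linagliptin.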

How the results depend on the processing

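No gene of the 34 passed the adjusted p for linagliptin in control cells, in DM-HFD cells or in the difference of responses under any alternative run. By the thresholds of the study in limma, 2 passed in DM-HFD cells without DM-HFD vehicle replicate 2 (205 of all genes higher and 38 lower). There 1 passed without DM-HFD linagliptin replicate 2 (118 and 58). In control cells 1 passed without control linagliptin replicate 5 (10 and 14). For the difference of responses 1 passed without control linagliptin replicate 3 (194 and 70) and 1 without DM-HFD vehicle replicate 2 (392 and 119). Between DM-HFD and control cells with vehicle, 8 of the 34 genes were called (5 higher, 3 lower). The count was 5 with TPM, 4 with quantile scaling, 5 with length and GC trends removed and 3 with those trends removed on median-of-ratios scaling. It was 0 with the model of Ballgown, which called 0 of 11359 genes. Over all genes TPM gave 121 higher and 5317 lower, quantile scaling 1259 and 1546, and trend removal 180 and 2766 (502 and 557 on median-of-ratios scaling). Without DM-HFD vehicle replicate 1 the count was also 5. The fibroblast, adipocyte and red cell marker sums of that library were the highest of its group, and its endothelial sum was not. Leaving out 1 library at a time gave 3 to 7, with the lowest counts without control vehicle replicate 2 and DM-HFD vehicle replicate 3. Over all genes these 2 fits gave 226 higher and 2708 lower, and 107 higher and 2390 lower. Without DM-HFD vehicle replicate 2, the highest of its group for 29 of the 34 genes, 7 were called, 2 higher and 5 lower. Over all genes that fit gave 561 higher and 3100 lower. With linagliptin, 9 were called. The count was 2 with TPM, 5 with equal sums without mitochondrially encoded genes, 3 with quantile scaling and 1 with length and GC trends removed, also on median-of-ratios scaling. It was 0 with the model of Ballgown, which called 1 of 11555 genes. Over all genes TPM gave 196 higher and 3151 lower, equal sums 379 and 3060 and quantile scaling 1497 and 1588. Trend removal gave 84 and 930, and 192 and 372 on median-of-ratios scaling. Leaving out 1 library at a time gave 1 to 12, with 1 without DM-HFD linagliptin replicate 3 and 12 without DM-HFD linagliptin replicate 1 (9 higher, 3 lower). Over all genes the fit without replicate 3 called 5 higher and 90 lower, and that without replicate 1 called 2357 higher and 3432 lower. Median-of-ratios scaling gave 12 higher and 0 lower with vehicle. Log2 fold changes of a gene called in the comparison or under the alternative turned for Acad9 with vehicle under the model of Ballgown (0.30), Acot13 with vehicle with length and GC trends removed (-0.32), Acadvl with linagliptin under the model of Ballgown (-0.095) and Etfb with linagliptin with length and GC trends removed (-0.073). Of genes not called, 21 of 26 with vehicle and 17 of 25 with linagliptin changed sign in at least 1 alternative, among them under the model of Ballgown Cpt1b (-0.14 to 1.33) and Hsd17b10 (0.29 to -0.31) with vehicle and Acot2 (0.50 to -0.81) and Mgll (-0.69 to 0.88) with linagliptin, and with length and GC trends removed Etfb with vehicle (0.33 to -0.14). The cause was not tested. Precision is limited by 3 DM-HFD libraries a group.

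With the replicate number as a block, 2 of the 34 genes were called with vehicle and 0 with linagliptin between DM-HFD and control cells, and 0 for linagliptin itself and for the difference of responses. Over all genes the block called 153 higher and 1904 lower with vehicle between the kinds of mice, and 0 with linagliptin. Deviations of same-numbered libraries had correlations from -0.32 to 0.51 for linagliptin in control cells (4 of 5 pairs over 0.1, 3 of 5 libraries best with their own number) and from -0.60 to 0.19 in DM-HFD cells (1 of 3 pairs), and between the kinds of mice 0 of 3 pairs passed 0.1 with vehicle and 0 of 3 with linagliptin. The labels do not say that the numbers pair the libraries, and the main fits did not pair them. For linagliptin in control cells the highest correlation, 0.74, was between libraries of different number, control vehicle replicate 4 and control linagliptin replicate 3. These values cannot exclude a pairing by number in control cells.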
